A study of Zea mays with 24 samples.

Results

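In dissected maize seeds, 56 of the 41614 genes in the count files peaked in the scutellar aleurone layer (SAL). The 56 genes, called members here, were chosen from measured levels. A member averaged at least 1 CPM (read counts relative to the library's total gene reads, scaled by TMM factors, as edgeR's cpm gives them) over the 4 SAL libraries. Its SAL mean was also at least 8 times the highest mean of the other 5 tissues. Of all genes, 26495 passed the filter on low counts that preceded this choice, and each member is among them. Levels in SAL against the rest are therefore a description, and no test is given for them.

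The series compared SAL, pericarp (Per), endosperm adjacent to the scutellum (EAS), endosperm (End), apical scutellum (AS) and embryo (Emb), with 4 libraries per tissue and 24 in all. The seeds came from untreated wild type plants, all labelled as the inbred line B73 except SAL replicate 1, whose label gives wild type without the line. The greenhouse was kept at 24 °C (day) and 19 °C (night) under 16 h of light, and each sample was a dissected tissue measured in bulk. Replicates are biological, per the design text. Not stated in the labels are the age of the seeds, how many seeds or plants went into a sample, and whether Emb samples held AS tissue and End samples held EAS or SAL tissue. The p-values below measure the spread between these samples. In bulk samples, fewer cells of a type and less RNA per cell cannot be told apart.

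The aleurone is the outermost cell layer of the cereal endosperm. Its cells store minerals, oil and protein, stay alive in the mature grain, and at germination secrete enzymes that break down the starch and protein reserves of the inner endosperm. The scutellum, a shield-like embryo organ, takes up those reserves, and the layer studied here is the aleurone next to it. The files list genes by identifier only, and 0 of the 41614 identifiers matched the gene table at hand, so no name, function or sequence is given for any member. For the same reason the SAL label could not be checked against known aleurone genes, nor any tissue against its markers.

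Gene reads ranged from 15.1 M in SAL replicate 2 to 61.1 M in the deepest library, and every library other than SAL replicate 2 held at least 37.6 M. A total of 3 reads over the 4 libraries of a tissue corresponded to 0.0158 CPM in SAL, 0.0153 in Per, 0.0178 in EAS, 0.0213 in End, 0.0151 in AS and 0.0138 in Emb. Many members sat at or below that level outside SAL, as given below. Means at or below it rest on at most 3 reads and carry a large counting error.

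The threshold cut through a continuous range. SAL was the tissue of highest mean for 2718 genes at 1 CPM or more, and 673 of these stood 2-fold or more above the next tissue, 220 stood 4-fold or more, 56 stood 8-fold or more and 19 stood 16-fold or more. Just inside the fold threshold stood Zm00001d005010 at 8.03 times its next tissue and Zm00001d016900 at 8.09 times. Just outside stood Zm00001d047736 at 7.99 times and Zm00001d028919 at 7.81 times, and both were more abundant in SAL than most members, with SAL means of 22.1 and 158 CPM. At the floor, the lowest member means in SAL were 1.17 CPM for Zm00001d011739 and 1.19 CPM for Zm00001d020626. Below the floor, Zm00001d050185 averaged 0.978 CPM in SAL at a ratio of 59.3, and Zm00001d033066 averaged 0.968 CPM at a ratio of 15.5.

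Most members were modest in SAL itself. The median SAL mean was 3.20 CPM, the quartiles were 2.22 and 5.82 CPM, 44 reached 2 CPM, 20 reached 5 CPM and 7 reached 10 CPM. A single gene, Zm00001d020938, carried 67.8% of the summed SAL level of the 56 members and was 14.8 times as abundant as the second member. It was also the sole member with a mean above 40 CPM in each of the other 5 tissues.

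Zm00001d020938 ranked 81st among all genes by SAL mean. It measured 530, 662, 655 and 573 CPM in the SAL libraries. In the other tissues it measured 44.5, 38.7, 41.5 and 54.3 CPM in Per, 36.8, 68.4, 46.2 and 72.4 CPM in EAS, 50.3, 77.0, 58.3 and 66.8 CPM in End, 64.5, 72.2, 72.8 and 69.7 CPM in AS, and 42.7, 51.3, 46.6 and 47.2 CPM in Emb. No SAL library overlapped any other library, while the ranges of the other 5 tissues overlapped one another except that AS lay wholly above Emb and Per. The tissue means were 605 ± 64.1 CPM in SAL and, in falling order, 69.8 ± 3.79 in AS, 63.1 ± 11.5 in End, 55.96 ± 17.2 in EAS, 47.0 ± 3.51 in Emb and 44.8 ± 6.81 in Per (SD, n = 4 each), so SAL stood 8.66-fold above AS.

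Zm00001d019497, the second most abundant member, measured 35.1, 43.7, 42.9 and 41.7 CPM in the SAL libraries. Its next tissue was Emb, at 3.47, 3.19, 3.88 and 6.19 CPM, which put the SAL mean of 40.9 ± 3.93 CPM at 9.77 times the Emb mean of 4.18 ± 1.37 CPM (SD, n = 4). It averaged 2.18 ± 0.122 CPM in Per, 2.42 ± 1.15 in EAS and 2.23 ± 0.424 in End, and these 3 ranges overlapped. AS was the tissue of lowest level, at 0.979, 1.09, 0.903 and 0.847 CPM, and lay below every library of the other tissues.

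The 5 other members that reached 10 CPM in SAL had their next-highest level in Per, and all were at or below 2.25 CPM in each library outside SAL. Zm00001d043858 measured 14.3, 13.97, 26.1 and 18.1 CPM in SAL, against 0.551, 0.479, 0.580 and 0.639 CPM in Per. It had 0 reads in the 4 AS libraries, 8 reads over the End libraries and 11 over the Emb libraries. Its ratio of 32.2 was the largest among these 7 genes, and the third SAL library lay above the other SAL libraries.

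Zm00001d046641 measured 14.3, 19.9, 16.1 and 18.3 CPM in SAL, against 1.08, 1.22, 2.00 and 2.25 CPM in Per. Zm00001d005823 measured 15.0, 12.4, 15.8 and 10.6 CPM in SAL, against 1.63, 1.41, 1.42 and 1.34 CPM in Per. In both, the embryo-side tissues AS and Emb were lower than Per in every library. Zm00001d012636 measured 12.1, 13.6, 15.0 and 11.2 CPM in SAL, against 0.482, 0.496, 0.386 and 0.683 CPM in Per. Zm00001d013229 measured 10.04, 8.23, 11.5 and 10.3 CPM in SAL, against 0.597, 0.579, 0.837 and 0.947 CPM in Per, and its End libraries, at 0.594, 0.786, 0.459 and 0.720 CPM, overlapped the Per libraries. Zm00001d043858, Zm00001d012636 and Zm00001d013229 were singled out after their values were seen, to complete the 7.

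**Figure D1:**
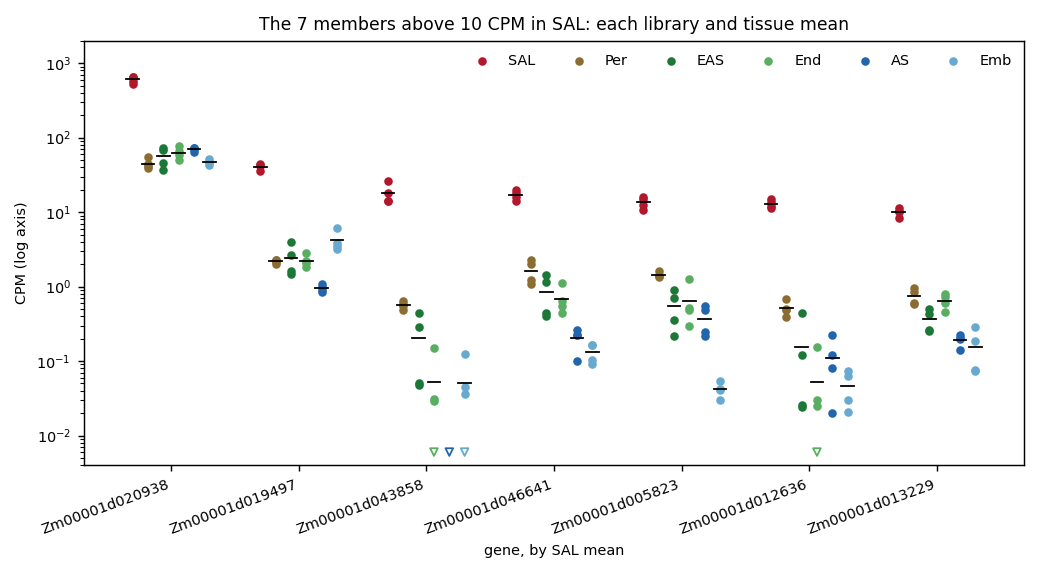
Levels of the 7 members that averaged at least 10 CPM in SAL, in CPM on a log axis, with a point for each of the 4 libraries of a tissue and a line at the mean; open triangles at the bottom mark libraries with 0 reads. Zm00001d020938 lies between 530 and 662 CPM in SAL and between 36.8 and 77.0 CPM elsewhere, while the other 6 genes lie at or below 6.19 CPM outside SAL.

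The same rule applied to each of the other tissues found 537 genes peaking in Per, 76 in EAS, 27 in End, 0 in AS and 136 in Emb. The SAL list was thus shorter than the Per, EAS and Emb lists and longer than the End and AS lists. The ratio of the SAL mean to the next tissue's mean had a median of 11.5 and ran from 8.03 to 71.6 over the members. The median was 16.9 for genes peaking in Per, 11.7 in EAS, 11.5 in End and 25.5 in Emb. A ratio of 32 or more was reached by 3 of the 56 members (5.36%), compared with 19.4% of the Per list, 3.70% of the End list, 43.4% of the Emb list and 0 genes of the EAS list. The peak level was also lowest in SAL, with a median of 3.20 CPM for the SAL list, against 8.07 in Per, 8.44 in EAS, 7.83 in End and 4.13 in Emb. These are counts and medians of lists made by one rule, and no test was made of their differences.

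The member of largest ratio was Zm00001d037041, at 71.6 times its Per level, and it was also the member with the most libraries at 0, 15 of the 20 outside SAL. It measured 2.12, 4.01, 2.54 and 2.57 CPM in SAL, against 0, 0.0496, 0.107 and 0 CPM in Per. Its 8 reads in Per, 4 in EAS and 1 in Emb, with 0 in End and AS, leave the size of the ratio uncertain. This gene was picked for its ratio after the values were seen.

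By library, the lowest SAL library of each of the 56 members lay above the highest of the 20 other libraries. Among all 26495 genes tested, 5.59% had this pattern, and since the rule used these levels nothing is read from the difference. In 23 members the lowest SAL library was at least 8 times the highest other library. The median of that ratio was 6.42 and the smallest was 1.31, in Zm00001d047261. Outside SAL, 10 members had reads in all 20 libraries, 11 had 0 reads in at least 10 of them, and 4 averaged 1 CPM or more in some other tissue.

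**Figure D2:**
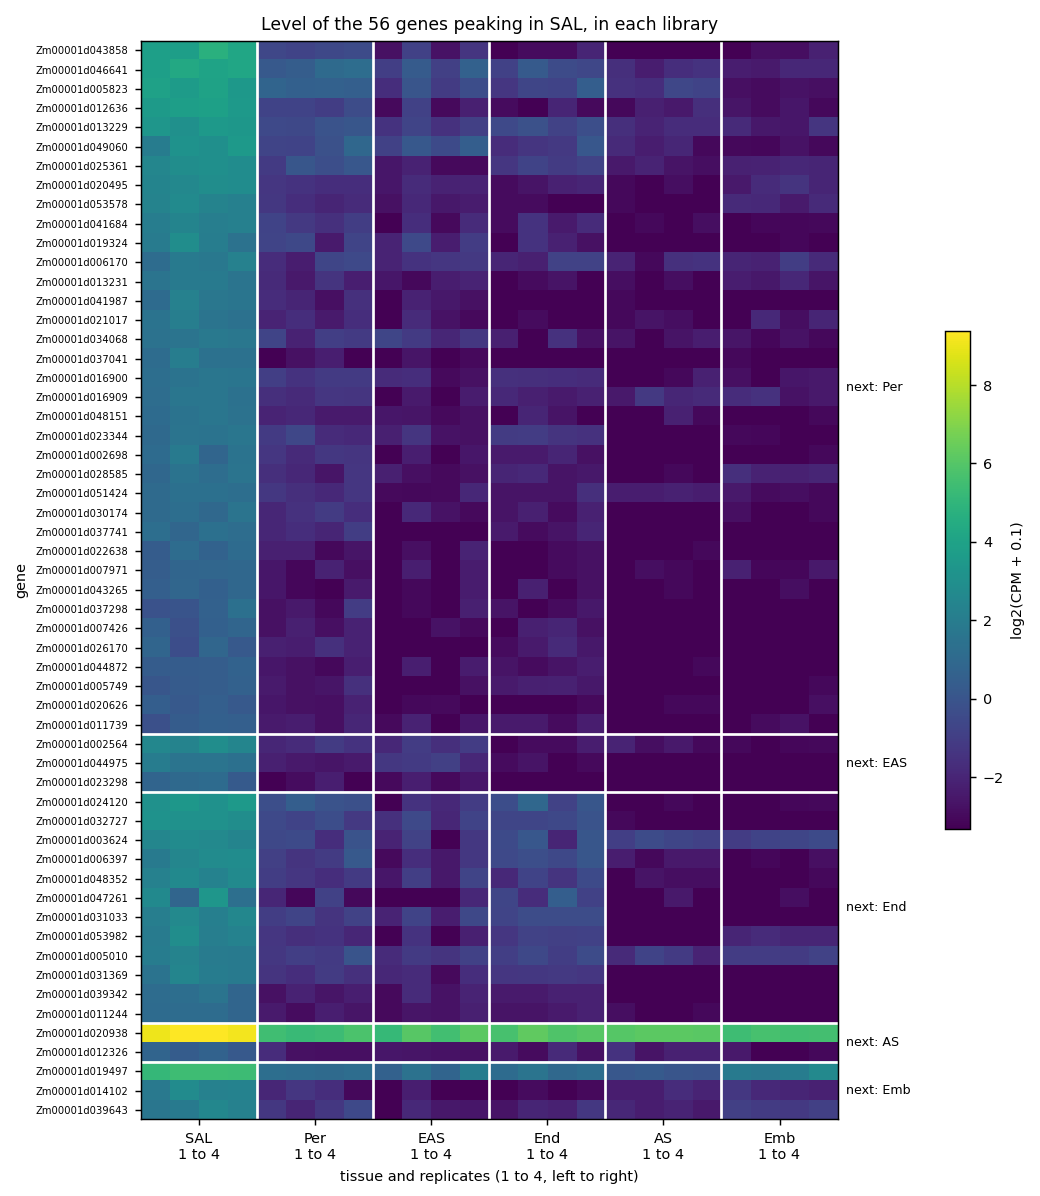
Level of each of the 56 members (rows, grouped by the tissue of next-highest mean and ordered by SAL mean within a group) in each of the 24 libraries (columns, 4 replicates per tissue), as log2(CPM + 0.1). The SAL columns are brightest in every row, the Per columns are next in most rows, and the AS and Emb columns are at or near 0 reads in many rows.

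Per was the next-highest tissue for 36 members (64.3%), End for 12 (21.4%), EAS for 3, Emb for 3 and AS for 2. Among the 2662 other genes that were highest in SAL at 1 CPM or more, 40.8% had Per next, 15.4% End, 16.0% EAS, 14.5% Emb and 13.3% AS. The rule used the next-highest level to part members from these genes, so nothing is read from the differences. The place of a tissue in this order was often not separated from the one after it: in 46 of the 56 members the libraries of the next-highest and the third tissue overlapped. The Per level of the 36 members was low, with a median of 0.240 CPM and a range from 0.0392 to 1.64 CPM.

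The 12 members with End next had End means from 0.0834 to 0.980 CPM, with a median of 0.564 CPM, and a median Per mean of 0.362 CPM. Zm00001d024120 had the highest End level of these. It measured 8.61, 10.4, 8.57 and 11.4 CPM in SAL, against 0.713, 1.80, 0.459 and 0.944 CPM in End and 0.735, 1.27, 0.859 and 0.749 CPM in Per. End and Per overlapped, and only 1 read in AS and 2 reads in Emb were counted for this gene. Zm00001d006397 measured 3.70, 5.52, 6.76 and 7.20 CPM in SAL, against 0.594, 0.727, 0.581 and 0.944 CPM in End, and its Per libraries, from 0.281 to 1.06 CPM, again spanned the End values.

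EAS came next for 3 members. Zm00001d002564 measured 5.76, 5.04, 7.42 and 5.42 CPM in SAL, against 0.167, 0.374, 0.231 and 0.383 CPM in EAS, with Per in the same range at 0.161, 0.198, 0.365 and 0.264 CPM. Zm00001d044975 measured 3.90, 2.82, 2.88 and 2.46 CPM in SAL, against 0.310, 0.352, 0.436 and 0.168 CPM in EAS. In this gene EAS lay above every library of the other 4 tissues: Per stood between 0.0644 and 0.115 CPM, End held 4 reads, and AS and Emb held 0.

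The embryo-side tissues were rarely next. Beside Zm00001d020938, AS was next for Zm00001d012326 alone, which measured 1.58, 1.19, 1.48 and 1.05 CPM in SAL, against 0.265, 0.0597, 0.120 and 0.121 CPM in AS, and the Per and End libraries overlapped the AS libraries. Of the 3 members with Emb next, Zm00001d039643 followed Zm00001d019497 in Emb level. It measured 3.07, 3.57, 5.76 and 4.66 CPM in SAL, against 0.437, 0.360, 0.328 and 0.435 CPM in Emb, and its Per libraries, from 0.149 to 0.595 CPM, spanned the Emb values.

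Reads of the members were scarcest in AS and Emb. Of the 56 members, 18 had 0 reads over the 4 AS libraries, 14 over Emb, 3 over End, 2 over EAS and 0 over Per. At most 3 reads were counted for 31 members in AS, 29 in Emb, 10 in End, 5 in EAS and 0 in Per. There were 9 members with 0 reads in both AS and Emb, and 24 with at most 3 reads in each. The median member level per library ran from 2.78 to 3.63 CPM in SAL, from 0.215 to 0.275 in Per, from 0.0238 to 0.187 in EAS, from 0.0892 to 0.124 in End, from 0 to 0.0201 in AS and from 0.00750 to 0.0207 in Emb. Per was the one tissue besides SAL in which each member had more than 3 reads.

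The summed level of the 56 members was 779, 963, 964 and 860 CPM in the SAL libraries, a mean of 892 ± 89.6 CPM (SD, n = 4). Relative to that mean, the sum reached 7.25% ± 1.06 in Per, 7.51% ± 2.52 in EAS, 8.66% ± 1.56 in End, 8.29% ± 0.453 in AS and 6.15% ± 0.415 in Emb (SD, n = 4 each). These sums were set largely by Zm00001d020938. Without it, the SAL sum was 287 ± 26.8 CPM, and the other tissues stood at 6.93% ± 0.939 of the SAL mean in Per, 3.82% ± 1.88 in EAS, 4.90% ± 0.956 in End, 1.45% ± 0.130 in AS and 2.73% ± 0.572 in Emb. In this second sum the 4 Per libraries lay above all libraries of EAS, End, AS and Emb, and the 4 AS libraries lay below all others, while the EAS range overlapped those of End and Emb. Zm00001d019497 alone averaged 4.18 CPM in Emb, where the second sum averaged 7.85 CPM.

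**Figure D3:**
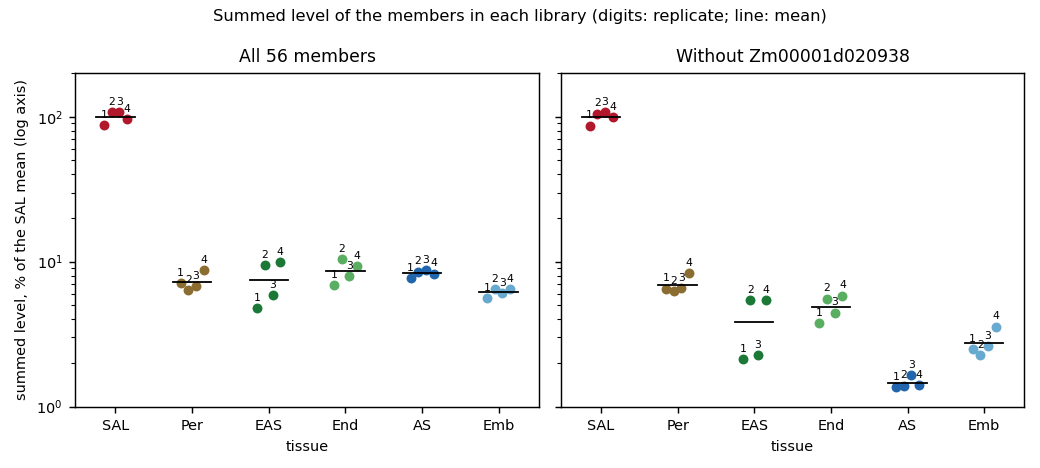
Summed level of the members in each library, as a percent of the SAL mean on a log axis, for all 56 members (left) and without Zm00001d020938 (right); digits give the replicate number and lines the tissue mean. Without that gene Per lies between 6.30% and 8.32%, EAS splits into replicates 1 and 3 at 2.12% and 2.27% and replicates 2 and 4 at 5.45% and 5.46%, and AS lies between 1.36% and 1.64%.

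The EAS libraries fell into pairs for the members. Without Zm00001d020938, the summed level was 2.12%, 5.45%, 2.27% and 5.46% of the SAL mean in EAS replicates 1 to 4. End replicates 2 and 4 also stood above 1 and 3, less far apart, at 3.78%, 5.56%, 4.45% and 5.83%. Per, AS and Emb did not show this order. In 34 of the 56 members (60.7%), replicates 2 and 4 were both above replicates 1 and 3, compared with 19.5% of all genes tested; this pattern was noticed in the data and is described without a test. In the same order of replicates, the genes peaking in End stood at 11.4%, 4.05%, 7.82% and 13.3% of their End level in EAS, those peaking in Per at 1.05%, 1.25%, 1.25% and 1.20% of their Per level, and those peaking in Emb at 0.815%, 1.07%, 0.984% and 1.19% of their Emb level. Per the labels, EAS replicates 1 and 3 were harvested on 27 April and 5 April. EAS replicates 2 and 4 are labelled 1 May and 18 May, and End replicate 3 is labelled 4 May. The part of the harvest date and of these other genes in the pairing was not tested.

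Within SAL, replicate 1 was low for the members. Of the 56 members, 32 (57.1%) had their lowest SAL level in replicate 1, 7 in replicate 2, 3 in replicate 3 and 14 in replicate 4. Among the 21081 genes with a SAL mean of at least 1 CPM, 27.5% were lowest in replicate 1. The median member stood at 0.855, 1.06, 1.05 and 1.01 times its SAL mean in replicates 1 to 4, while the median over the 21081 genes stood at 0.999, 0.987, 1.00 and 1.00. The genes peaking in Per had their highest level within SAL in the same library, at 9.39%, 5.03%, 4.76% and 6.17% of their Per level in SAL replicates 1 to 4. The genes peaking in End stood at 11.7%, 9.76%, 5.10% and 2.02% of their End level, those peaking in EAS at 5.97%, 6.81%, 4.71% and 7.08% of their EAS level, and those peaking in Emb at 1.60%, 1.59%, 1.64% and 1.79% of their Emb level. The part of reads from neighbouring tissues in the members' levels was not tested.

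**Figure D4:**
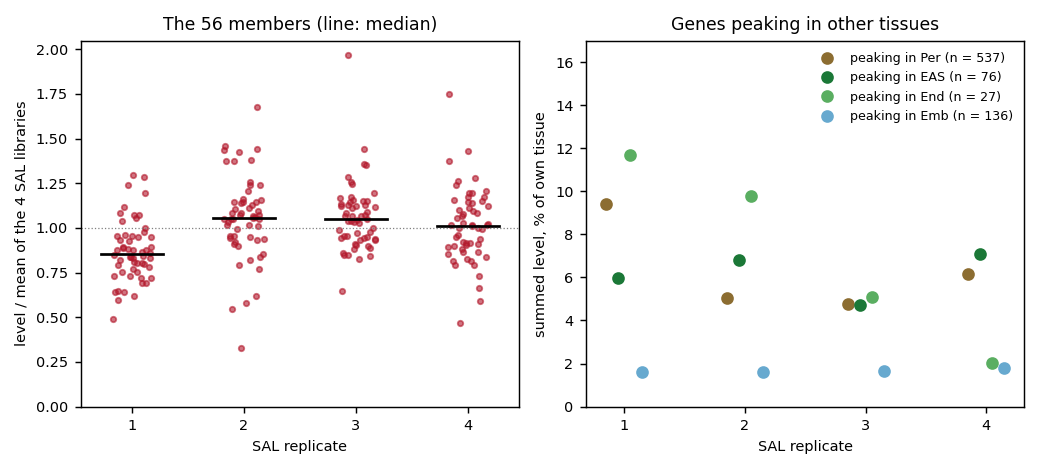
Left, the level of each of the 56 members in a SAL library divided by its mean over the 4 SAL libraries (points, spread sideways; line at the median). Right, the summed level in each SAL library of the genes that peak in Per, EAS, End or Emb, as a percent of their level in their own tissue. The member median is 0.855 in replicate 1 and between 1.01 and 1.06 in the others, and the Per genes stand highest in replicate 1, at 9.39%.

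The spread between SAL libraries differed among members. The coefficient of variation (SD as a percent of the mean) over the 4 SAL libraries had a median of 18.0% over the members and ran from 7.49% in Zm00001d032727 to 75.9% in Zm00001d047261. For the 36 members between 1 and 5 CPM in SAL the median was 19.9%, compared with 17.9% for the 4509 genes in that range. For the 20 members at 5 CPM or more it was 16.0%, compared with 7.03% for 16572 genes. This range has no upper limit, and 2 members reached 20 CPM. Zm00001d043858, at 18.1 CPM, ranked 10330th among all genes by SAL mean. The 2 medians therefore compare genes of unlike level, and nothing is read from their difference. Zm00001d020938 and Zm00001d019497 varied by 10.6% and 9.62%.

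Zm00001d047261, named for its spread after the values were seen, measured 6.38, 1.68, 10.1 and 2.39 CPM in SAL. It measured 0.535, 0.204, 1.28 and 0.447 CPM in End and 0.161, 0.0165, 0.451 and 0.0220 CPM in Per. The replicate numbers stood in the same order in all 3 tissues, with number 3 highest and number 2 lowest, and it was the sole member for which this held. Among genes of at least 1 CPM in SAL, 0.451% showed such a shared order. Per the labels, number 3 was harvested on the same day in these 3 tissues, as was number 2.

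As a description, the genes were also chosen without a replicate number and then read in the libraries left out. When the rule was applied to 3 of the 4 numbers, it found 58, 55, 50 and 60 genes with numbers 1 to 4 left out, of which 53, 49, 49 and 53 were members. In the left-out libraries, 1 per tissue, SAL was the highest tissue for 58 of 58, 53 of 55, 50 of 50 and 60 of 60 of these genes. The ratio there was at least 8 for 44, 42, 42 and 37 of them, with medians of 10.6, 11.8, 15.1 and 8.96. Normalization factors came from all 24 libraries in each case, so the left-out libraries were not wholly apart from the choice. These counts are no test of the choice, and nothing is read from them.

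How the members differed among the other tissues was tested in 4 comparisons that hold no SAL library. A gene was called higher or lower where edgeR's quasi-likelihood test gave an adjusted p under 0.05 and the difference was at least 2-fold. The adjustment (Benjamini-Hochberg) ran over the genes tested, 26495 with all 24 libraries and 26035 without SAL. Of the 56 members, 26 passed the low-count filter only because of their SAL reads. Each comparison therefore opens with the 30 members that passed the filter without SAL, in a fit of the other 20 libraries, and the counts over all 56 in the fit of 24 libraries follow as a description. The edgeR fold changes, SEs and adjusted p-values of single members come from the fit of 24 libraries. SAL libraries thus entered their normalization and their estimate of spread. The 30 members still had to have reads in some tissue other than SAL, so their shares are descriptions too. The median log2 fold changes over the 56 include the 26 members that entered through SAL. Nothing is read from their difference from the median of all genes. The comparisons share tissues and are not independent of each other: End enters 3 of them and Emb enters 2.

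Between endosperm and embryo, the called members were mostly higher in End. In End against Emb, 18 of the 30 members that passed the filter without SAL were higher in End (60%), beside 24.1% of all genes, and 1 was lower (3.33%), beside 26% of all genes. Over all 56 members, 28 (50%) were higher in End, beside 23.7% of all genes tested, and 5 (8.93%) were lower, beside 26.3%. Of those 28 calls, 18 were of members that passed without SAL, and in 21 Emb held 3 reads or fewer, with 0 reads in 10 and 1 to 3 reads in 11. In 23 of the 28 the End and Emb libraries did not overlap. The share of all genes without overlap was not counted, so nothing is read from the 23. The median log2 fold change over the 56 members was 2.00, and it was 0 over all genes. With members at 0 reads set to their bound and those at 3 reads or fewer in both tissues left out, it was 1.93 over 51 members. On library sizes without normalization factors, 24 of the 56 were higher and 7 lower, beside 17.3% and 37.3% of all genes.

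Zm00001d046641 averaged 0.685 ± 0.292 CPM in End and 0.131 ± 0.0395 CPM in Emb (log2 fold change 2.38 with SE 0.46, edgeR adjusted p = 6.18e-05). Zm00001d005823 measured 0.297, 0.524, 0.489 and 1.27 CPM in End, against 0.0416, 0.0300, 0.0546 and 0.0414 CPM in Emb (log2 fold change 3.91 with SE 0.57, edgeR adjusted p = 1.30e-06). In both genes each End library lay above each Emb library. Zm00001d032727, named after its values were seen, measured 0.535, 0.524, 0.581 and 0.845 CPM in End and had 0 reads in Emb, which makes it at least 45.1-fold higher in End against 3 reads over the 4 Emb libraries. Among the 5 lower members, Zm00001d039643 averaged 0.163 ± 0.113 CPM in End and 0.390 ± 0.0545 CPM in Emb (log2 fold change -1.20 with SE 0.48, edgeR adjusted p = 0.0265), a call that was lost without End replicate 1, 2 or 3. Without End replicate 1 the count of lower members was 3.

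Between pericarp and endosperm, the share of members higher in Per was close to that of all genes once members tested only through SAL were set aside. In Per against End, 9 of the 30 members that passed the filter without SAL were higher in Per (30%), beside 30.4% of all genes, and 1 was lower (3.33%), beside 18.9%. Over all 56 members, 22 (39.3%) were higher in Per, beside 29.9% of all genes tested, and 1 (1.79%) was lower, beside 19.5%. Of those 22 calls, 10 were of members that passed without SAL, and the rest were of members that entered the test only through their SAL reads. In 14 of the 22 the libraries did not overlap, in 3 End held 0 reads, in 5 it held 1 to 3, and the bound against 3 reads was under 2-fold in 2. Here too the share of all genes without overlap was not counted, and nothing is read from the 14. The median log2 fold change was 0.92 over the 56 members and 0.12 over all genes, and 0.88 over the 56 with genes at 0 reads set to their bound. Without normalization factors 30 of the 56 were higher and 0 lower, beside 42.3% and 10.6% of all genes, and the median of all genes was 0.74.

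Zm00001d005823, with Per at 1.45 ± 0.126 CPM and End at 0.644 ± 0.427 CPM, was higher in Per (log2 fold change 1.13 with SE 0.35, edgeR adjusted p = 0.00575), and its 4 Per libraries lay above its 4 End libraries. That call was lost without End replicate 1. Zm00001d012636 averaged 0.512 ± 0.124 CPM in Per and 0.0519 ± 0.0686 CPM in End (log2 fold change 3.29 with SE 0.70, edgeR adjusted p = 0.000170). For the abundant pair no call was made: Zm00001d020938 differed by a log2 fold change of -0.50 (edgeR adjusted p = 0.00795), under the 2-fold limit, and Zm00001d019497 by -0.03 (edgeR adjusted p = 0.906). The 1 member called lower in Per was Zm00001d047261 (log2 fold change -1.95 with SE 0.84, edgeR adjusted p = 0.0384). Its call was lost without End replicate 3 or without Per replicate 1, 2 or 4, and with DESeq2 (DESeq2 adjusted p = 0.173).

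**Figure D5:**
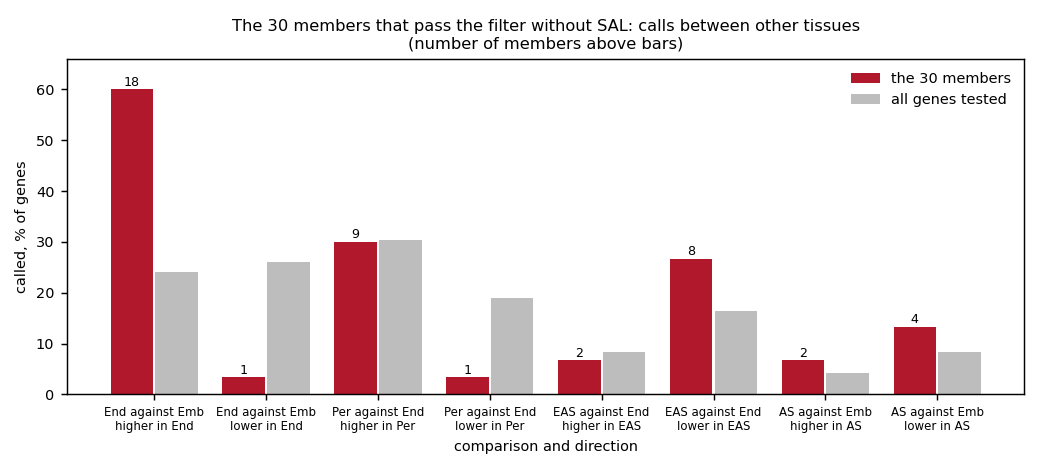
Share of the 30 members that passed the low-count filter without SAL (red, number of members above the bar) and of all 26035 genes tested in the fit of the other 20 libraries (grey) called higher or lower in 4 comparisons between tissues other than SAL, in percent. Members higher in End than in Emb make up 60%, beside 24.1% of all genes, while those higher in Per than in End make up 30%, beside 30.4% of all genes.

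Between the endosperm next to the scutellum and the endosperm, members were called in both directions. In EAS against End, 2 of the 30 members that passed the filter without SAL were higher in EAS (6.67%), beside 8.24% of all genes, and 8 were lower (26.7%), beside 16.4%. Over all 56 members, 6 (10.7%) were higher in EAS, beside 8.34% of all genes tested, and 11 (19.6%) were lower, beside 16.3%. The median log2 fold change was -0.37 over the 56 members and -0.01 over all genes. Without normalization factors the counts over the 56 were 9 higher and 9 lower, beside 11% and 13.8% of all genes.

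Zm00001d002564 averaged 0.289 ± 0.107 CPM in EAS and 0.0398 ± 0.0422 CPM in End (log2 fold change 2.70 with SE 0.56, edgeR adjusted p = 0.000236). In the other direction, Zm00001d024120 measured 0, 0.264, 0.179 and 0.383 CPM in EAS, below the 0.459 CPM of its lowest End library (log2 fold change -2.23 with SE 0.48, edgeR adjusted p = 0.000326). Zm00001d006397 averaged 0.158 ± 0.132 CPM in EAS and 0.712 ± 0.168 CPM in End (log2 fold change -2.15 with SE 0.51, edgeR adjusted p = 0.000822). In each of these 3 genes the EAS libraries lay on one side of the End libraries.

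Between the apical scutellum and the embryo, 24 of the 56 members had at most 3 reads in both tissues. In AS against Emb, 2 of the 30 members that passed the filter without SAL were higher in AS (6.67%), beside 4.26% of all genes, and 4 were lower (13.3%), beside 8.29%. Over all 56 members, 3 (5.36%) were higher in AS, beside 4.02% of all genes tested, and 7 (12.5%) were lower, beside 8.42%. The median log2 fold change was 0 over the members and over all genes, and -0.18 over the 32 members with more than 3 reads in a tissue. Without normalization factors the counts over the 56 were 3 higher and 7 lower, beside 3.45% and 9.01% of all genes. Without AS replicate 1, 1 of the 56 was higher in AS.

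Zm00001d019497 was lower in AS than in Emb (log2 fold change -2.12 with SE 0.25, edgeR adjusted p = 6.74e-07), with AS at or below 1.09 CPM in every library and Emb at or above 3.19 CPM. Zm00001d020938 went the other way, at 69.8 ± 3.79 CPM in AS and 47.0 ± 3.51 CPM in Emb (log2 fold change 0.57 with SE 0.16, edgeR adjusted p = 0.00777), which was under the 2-fold limit. Zm00001d005823 averaged 0.372 ± 0.165 CPM in AS and 0.0419 ± 0.0101 CPM in Emb (log2 fold change 3.09 with SE 0.60, edgeR adjusted p = 0.000276). Zm00001d002564 averaged 0.0708 ± 0.0541 CPM in AS and 0.0149 ± 0.0100 CPM in Emb, from 14 reads in AS and 3 in Emb. The third member called higher in AS, Zm00001d012326, held 28 reads in AS and 5 in Emb, and it entered the test only through its SAL reads.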

How the data were processed

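RNA from 6 maize seed tissues, 4 libraries each, was poly(A)-selected and sequenced paired-end and unstranded after TruSeq preparation, per the labels' protocols. TopHat2, Bowtie2 and the build B73 RefGen_v4 appear in the submitters' processing notes, while versions, annotation release and counting settings were not given in any source used here. Deposited files hold raw read counts per gene, not normalized, 1 library per file, and end in the 5 summary rows of htseq-count. Those rows and 154 microRNA loci were left out. Alignments at several positions, 7.81% to 16.2% of a library's records, were not counted to genes by the authors, so near-identical gene copies are uncertain, as are genes overlapping on opposite strands, since reads carry no strand.

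The analysis used edgeR 4.0.16 in R 4.3.3: filterByExpr with tissue as group and a minimum count of 10, TMM factors, a quasi-likelihood fit to 24 libraries with tissue as term, and glmQLFTest with Benjamini-Hochberg adjustment over all 26495 genes tested. The fit of the 20 libraries without SAL took the same steps, adjusted over 26035 genes. CPM used TMM-scaled library sizes. The SE is the size of the log2 fold change divided by the square root of F, not a fitted standard error. Folds against 0 reads are bounds against 3 reads over a tissue and cover counting error only. The steps were run on simulated data with changes planted only in genes of at least 1 CPM in End. Only 2 members averaged that much in End, so the simulation does not cover the calls of the rest. DESeq2 1.42.0, RLE size factors, other filters, other library sets, a replicate block and leaving out each library were alternatives.

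Members and lists were chosen with earlier results of these data known. Members were named by rule: the 2 of highest SAL mean, the 2 of largest ratio and of highest and lowest SAL spread among those at 20 CPM or more, the 2 of highest level in each next-highest tissue, the largest called changes reaching 1 CPM in the higher tissue, and the genes nearest the thresholds; further identifiers were named after their values were seen. The gene table at hand (Zm-B73-REFERENCE-NAM-5.0, 49888 genes) matched 0 identifiers. No 2 libraries of a tissue agreed within sampling noise (chi-square per degree of freedom 7.12 or more).

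Per the labels, replicates with the same number share a harvest day across tissues, except EAS replicate 3 and Emb replicate 1, whose dates differ, and SAL replicate 4, whose date is not specified. The numbers therefore pair libraries by day. In the 4 comparisons, deviations of same-numbered libraries from their tissue means correlated between -0.0185 and 0.251, over 0.1 in 9 of 16 pairs.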

Additional observations from a re-analysis of the deposited data

Results flagged for a closer look

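Among 91 groups of 4 libraries examined (members named in the text averaging at least 0.1 CPM in a tissue, and the summed levels), 4 held a library whose distance from its nearest neighbour exceeded Dixon's 95% limit, as a share of the group's range. Chance gives about 1 in 20 such groups.

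Zm00001d005010 stood at 0.881 CPM in Per replicate 4, against 0.322 to 0.413 CPM in the other Per libraries, and at 0.476 CPM in Emb replicate 4, against 0.364 to 0.375 CPM in the other Emb libraries. Zm00001d053578, named after its values were seen, stood at 0.0911 CPM in Emb replicate 3, against 0.180 to 0.187 CPM in the other Emb libraries. The summed level of the members without Zm00001d020938 stood at 23.9 CPM in Per replicate 4, against 18.1 to 18.8 CPM in the other Per libraries.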

How the results depend on the processing

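The number of members, 56, was 90 on library sizes without TMM factors (all 56 among them), 220 at 4-fold, 19 at 16-fold, 20 with a SAL floor of 5 CPM, 23 where the lowest SAL library had to be 8 times the highest other, and 52 to 64 leaving out a library (64 without Per replicate 4). Summed levels as a percent of SAL became 5.42% in End, 7.13% in AS and 5.61% in Emb without TMM. Without the 10 members of highest SAL mean they were 3.39% in EAS, 5.20% in End, 1.49% in AS and 2.15% in Emb. Without the top member alone, an alternative added after seeing the data, they were 3.82%, 4.90%, 1.45% and 2.73%. Leaving out a SAL library gave 6.96% to 7.45% in Per, 7.20% to 7.72% in EAS, 8.31% to 8.90% in End, 7.96% to 8.53% in AS and 5.90% to 6.32% in Emb.

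With at least 1 CPM in 12 libraries, 2 members remained: 1 was called, lower in AS than in Emb, and the 7 other counts were 0, also at an unadjusted edgeR p under 0.05. Fitted on 20 libraries without SAL (30 members tested), 2 members were higher in EAS than in End, 4 lower in AS than in Emb, 9 higher in Per than in End, and 18 higher and 1 lower in End than in Emb. Fitted on 2 tissues at a time, fewer members were tested: of 17, 0 were higher (0 also at an unadjusted p) and 4 lower in EAS; of 7, 1 was higher and 2 lower in AS; of 25, 6 were higher in Per; of 11, 6 were higher and 1 lower in End than in Emb. DESeq2 called 5 members higher in AS and 0 lower in Per than in End, and edgeR without normalization factors, added after seeing the data, called 0 lower in Per (in both, 0 also at an unadjusted p). The cause was not tested. RLE size factors, no low-count filter and the replicate block kept the counts of calls within 1.5 times.

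Leaving out a library gave 6 to 9 members higher and 8 to 15 lower in EAS against End, 1 to 4 (1 without AS replicate 1) and 6 to 8 in AS against Emb, 15 to 21 and 0 to 1 (0 without End replicate 3 or Per replicate 1 or 2) in Per against End, and 26 to 29 and 3 to 6 (3 without End replicate 1) in End against Emb. With the replicate number as a block, 7 members were higher and 12 lower in EAS than in End, 4 and 7 in AS than in Emb, 21 and 1 in Per than in End, and 30 and 5 in End than in Emb. Shares of all genes were counted for the main fit, the fit without SAL and the fit without normalization factors. For the other settings they were not, so those counts do not tell a change in the members from one in all genes. Of the fold changes of named members, 469 alternative values belonged to called ones: 444 stayed called, 25 lost the call and 0 reversed. Another 623 belonged to fold changes not called, of which 32 gained a call.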

Other observations

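Among the microRNA loci, which the rule left out, MIR172e averaged 0.863 CPM in SAL, 8.93 times its next-highest tissue, End, at 0.0966 CPM, but stayed below the floor of 1 CPM. MIR171e averaged 7.14 CPM in SAL and 1.95 CPM in AS, a ratio of 3.67, and MIR166c averaged 1.69 CPM in SAL and 0.488 CPM in Emb, a ratio of 3.46. The reads come from polyadenylated precursor RNA and say nothing of the mature small RNA.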
